A study of Anolis sagrei with 15 samples.

Results

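The gene models described here carry the symbols of bone morphogenetic protein (BMP), transforming growth factor-beta (TGF-beta) and activin signalling in the embryonic eye of the brown anole, *Anolis sagrei*. The rule reads the symbol alone. A gene model was taken where its symbol began with BMP, INHB, ACVR, CHRD, GREM, FST or LTBP, with GDF or SMAD followed by a digit, or with TGFB followed by a digit or R, and also where it was NOG or a numbered ID gene. This gave 76 of the 20235 gene models in the table, under 63 distinct symbols. Of the 76, 61 had enough reads to be tested and 15 did not. The copy of the table used here breaks off in its last line, and anything after that line is not analysed here.

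RNA was sequenced from 3 regions of the posterior globe, the back of the eye with the retina and the layers behind it, at Sanger stage 16.5. There were 5 temporal, 5 nasal and 5 central libraries, so the groups differed in region only. The embryos were of mixed sex, came from wild-caught Florida anoles, and carry no treatment or genotype in the labels. The study's methods describe tissue pooled from 3 embryos, for fewer eye libraries than are analysed here, so whether each of the 15 was such a pool is not known. P-values measure the spread between these samples of dissected, mixed tissue, which may in part be technical. Libraries with the same replicate number deviated together from the means of their regions, although no label says what a number shares. Results whose call changed when the replicate number entered the fit as a block are therefore given with both values.

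Signalling in this family starts with secreted dimeric ligands that bring type I and type II serine/threonine kinase receptors together. Activated type I receptors phosphorylate SMAD proteins, which join SMAD4 and enter the nucleus, where BMP-responsive genes such as the ID genes are targets, while SMAD6 and SMAD7 inhibit the pathway. Secreted antagonists bind the ligands outside the cell: noggin and chordin bind BMPs, and follistatin binds activins with high affinity. In the vertebrate eye these signals are known for roles in dorsal-ventral patterning, in lens and optic cup formation, in closure of the optic fissure and in the balance between neural retina and pigment epithelium.

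Counted reads per library were 15177438 to 24688374 in the temporal region, 18365334 to 25166494 in the nasal region and 15712525 to 27035312 in the central region. Levels are given as CPM, the counts relative to 1000000 counted reads after scaling, and a log2 fold change is the first region named minus the second. A gene model was called where the p of edgeR's quasi-likelihood test was under 0.05 after Benjamini-Hochberg adjustment over the 15910 gene models tested. The labels of the temporal and central regions matched a marker of each. FOXD1, a transcription factor of the temporal retina, was at 34.7 to 61.7 CPM in temporal libraries, at 0 to 0.295 CPM in nasal libraries and at 0 to 1.45 CPM in central libraries. PAX2, which marks glia of the optic nerve head, was at 0.272 to 0.826 CPM in temporal libraries, at 0.0835 to 0.318 CPM in nasal libraries and at 22.7 to 37.7 CPM in central libraries.

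Central replicate 4 stood apart from the other libraries of its region. It listed 14994 gene models with reads, against 17603 to 18617 in the other central libraries. Summed markers of periocular mesenchyme were at 2988 CPM in it and at 308 to 1033 CPM in the others, and summed endothelial markers at 300.0 CPM against 172 to 189 CPM. Of the 61 gene models tested, 39 had their highest central level in this library, 8 had their lowest, and 23 exceeded the median of the other central libraries by more than 1.5 times. The same counts over all gene models tested are not given here, so these do not set the members apart from the rest of the table. Results that rest on central replicate 4 are given with and without it.

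Follistatin (FST), the BMP ligands BMP2 and BMP8B and the activin subunits INHBA and INHBB held every called difference of more than 1 on the log2 scale. BMP8B passed the filter on low counts only through its central libraries, so the filter set its direction. INHBA passed it only through its temporal and nasal libraries, which likewise bears on its direction against central tissue. Both are nevertheless counted below among the calls against central tissue. Between nasal and central tissue, 11 of the 61 gene models were called, 5 higher and 6 lower in nasal tissue, where 18.4% of all gene models tested were called, 7.94% higher and 10.4% lower. Between temporal and central tissue, 6 were called, 3 higher and 3 lower in temporal tissue, beside 6.78% of all gene models, 3.24% higher and 3.53% lower. Between temporal and nasal tissue, 7 were called, 5 higher and 2 lower in temporal tissue, beside 6.59% of all gene models, 4.40% higher and 2.19% lower. As shares of the 61 these were 18%, 9.84% and 11.5%, so the nasal-central share was that of the table as a whole. In the test of any difference among the 3 regions, 13 of the 61 were called (21.3%), beside 17.2% of all gene models. The median log2 fold change over the 61 was -0.03 for nasal minus central, -0.01 for temporal minus central and 0.02 for temporal minus nasal, against 0.03, 0.01 and -0.01 over all gene models tested.

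The number of calls depended on the block and, for temporal against nasal, on most of the temporal and nasal libraries. With the block, 19, 12 and 12 of the 61 were called in the nasal-central, temporal-central and temporal-nasal comparisons, beside 27.9%, 12.7% and 13.9% of all gene models. No call without the block was lost with it, and 12 more gene models were called in at least 1 comparison. Without central replicate 4 the counts were 16, 8 and 9, beside 20.6%, 7.36% and 9.24% of all gene models, and all 11, 6 and 7 calls made with every library remained. The number of temporal-nasal calls fell from 7 to 3 without nasal replicate 1, 2, 3 or 4 or without temporal replicate 2, 3 or 5. It fell to 4 without nasal replicate 5 and to 1 without temporal replicate 4. Over all gene models, temporal-nasal calls numbered 680 to 906 without 1 of these libraries, other than 1259 without nasal replicate 1, against 1048 with every library. Without nasal replicate 1, 5 of the 7 calls were lost, so the 3 made there were not all among the 7. The libraries of the 2 regions did not overlap for 11 of the 61 between nasal and central tissue, beside 13.3% of all gene models, for 8 between temporal and central tissue, beside 7.29%, and for 9 between temporal and nasal tissue, beside 9.13%.

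**Figure D1:**
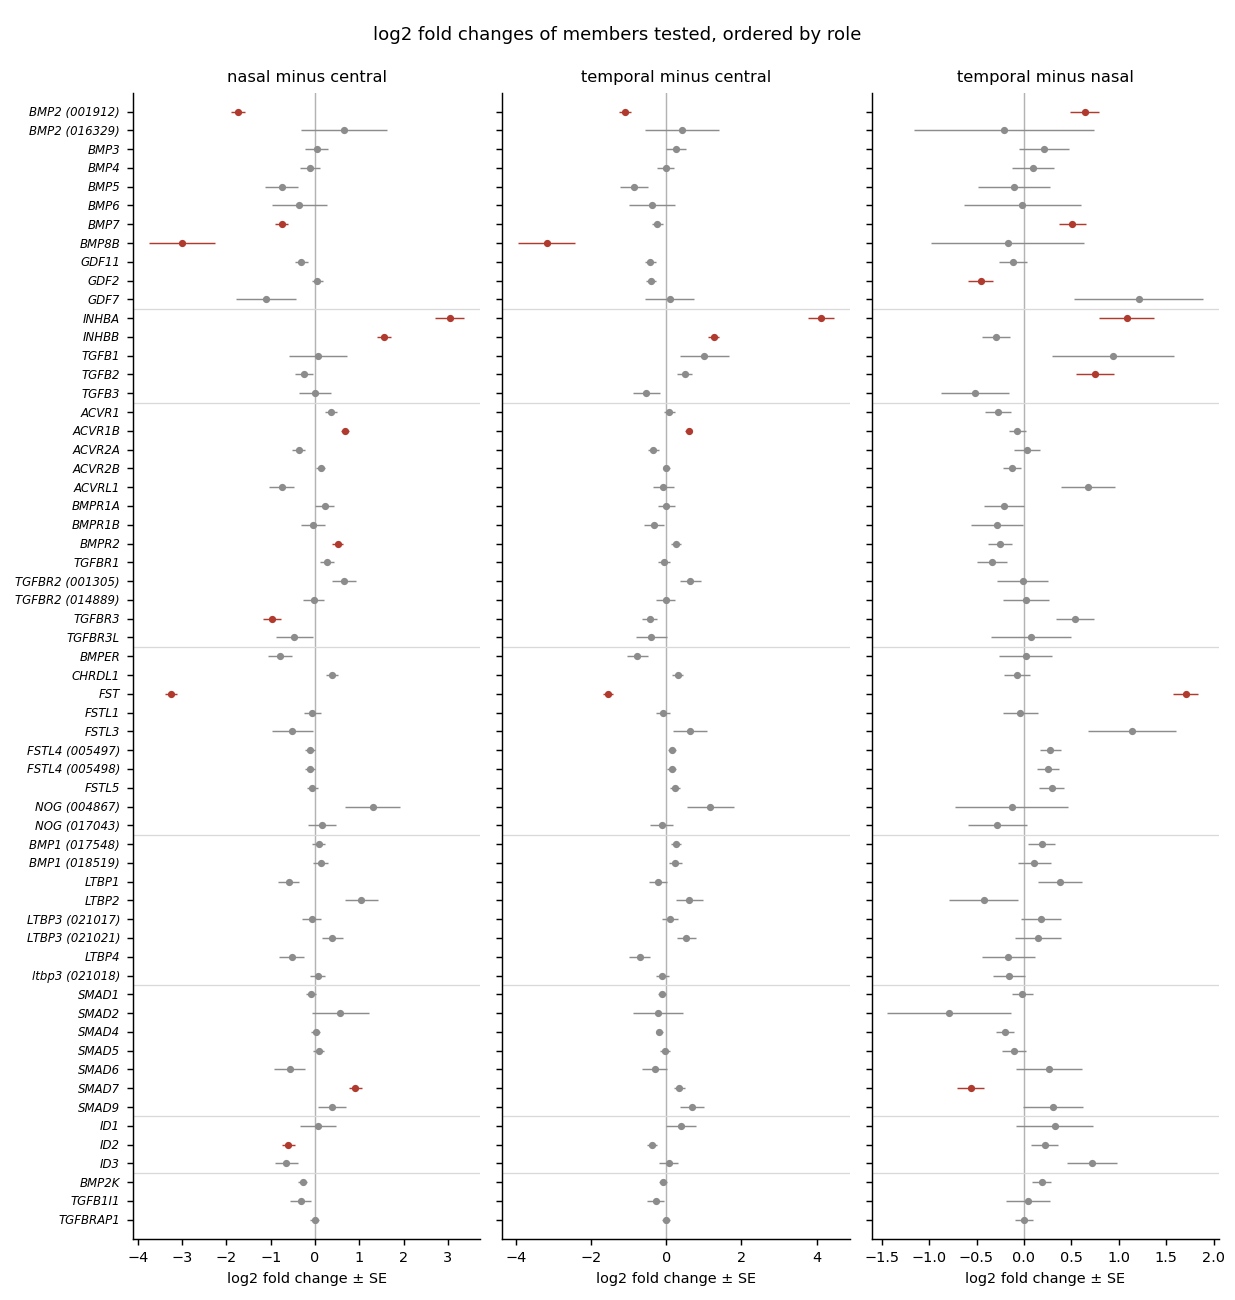
log2 fold changes of 60 of the 61 gene models tested, grouped by role from BMP ligands at the top to genes matched by name only at the bottom, for nasal minus central, temporal minus central and temporal minus nasal. Points are edgeR estimates, bars are ± 1 standard error, red marks an adjusted p under 0.05, and the scale of the horizontal axis differs among the panels; INHBA (3.04 and 4.12) and FST (-3.25 and -1.55) lie at opposite sides of 0 in the comparisons with central tissue.

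The activin subunits were higher in temporal and nasal tissue than in central tissue. INHBA and INHBB encode the beta A and beta B subunits, whose dimers form the activins and which also take part in inhibins. INHBA (ANOSAT014742) was at 14.8, 15.9, 12.8, 11.9 and 12.4 CPM in temporal libraries 1 to 5, at 5.53, 8.06, 5.71, 6.30 and 6.39 CPM in nasal libraries and at 0.334, 0.593, 0.444, 1.92 and 0.684 CPM in central libraries. The regions did not overlap, and temporal libraries were highest and central libraries lowest. The log2 fold change was 4.12 for temporal minus central (SE 0.342, edgeR adjusted p = 4.5e-07) and 3.04 for nasal minus central (SE 0.335, adjusted p = 3.1e-06). The highest central value, that of replicate 4, rested on 30 reads, and the other central libraries had 6 to 16 reads. Temporal tissue exceeded nasal tissue by 1.08 on the log2 scale (SE 0.288, edgeR adjusted p = 0.029). That call was lost without nasal replicate 1, 3, 4 or 5 or temporal replicate 1, 2, 3 or 4, with log2 fold changes of 1.03 to 1.12 and adjusted p of 0.0524 to 0.0754.

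INHBB (ANOSAT001272) was at 64.0, 62.6, 49.5, 51.2 and 53.8 CPM in temporal libraries, at 69.0, 75.4, 66.9, 68.7 and 64.2 CPM in nasal libraries and at 23.8, 22.5, 26.8, 14.0 and 30.2 CPM in central libraries. Every temporal and nasal library was above every central library. The log2 fold change was 1.26 for temporal minus central (SE 0.153, edgeR adjusted p = 2.9e-05) and 1.55 for nasal minus central (SE 0.153, adjusted p = 8.2e-07). The order of the outer regions differed from that of INHBA: the nasal libraries lay above the temporal ones without overlap, but at a log2 fold change of -0.29 for temporal minus nasal (approximate 95% interval -0.58 to -0.00) this did not pass the test (edgeR adjusted p = 0.33). A further gene model with the symbol INHBB (ANOSAT004271) had 2 reads in nasal replicate 5 and 0 in the other libraries, so it adds nothing to these values.

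Follistatin ran the opposite way. FST (ANOSAT003492), the secreted protein that binds and neutralizes activins, was at 75.0, 88.0, 96.3, 121 and 98.1 CPM in temporal libraries, at 26.2, 30.5, 26.5, 37.8 and 26.1 CPM in nasal libraries and at 306, 244, 279.9, 275 and 293 CPM in central libraries. No libraries of different regions overlapped, with the central region highest and the nasal region lowest. It was 2.92-fold lower in temporal than in central tissue (log2 fold change -1.55, SE 0.126, edgeR adjusted p = 3.4e-07) and 9.51-fold lower in nasal than in central tissue (log2 fold change -3.25, SE 0.135, adjusted p = 1.9e-11). It was 3.25-fold higher in temporal than in nasal tissue (log2 fold change 1.70, SE 0.128, edgeR adjusted p = 1.6e-07). All 3 FST calls held in each of the 25 alternative settings. The central libraries thus combined the highest FST levels with the lowest INHBA and INHBB levels. Nasal tissue, with the lowest FST levels, had the highest INHBB levels, but INHBB was not called between the outer regions (edgeR adjusted p = 0.33). INHBA did not run opposite to FST between the outer regions, since both were higher in temporal than in nasal tissue.

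Markers of the optic nerve head moved with FST in part. The list of 8 glial symbols summed to 666 to 844 CPM in temporal libraries, 333 to 432 CPM in nasal libraries and 804 to 1112 CPM in central libraries, and none of PAX2, GFAP and PMP2 was at 0 in any library. GFAP, an intermediate filament of astrocytes, was at 302 to 388 CPM in temporal libraries, 69.7 to 153 CPM in nasal libraries and 507 to 627 CPM in central libraries. PMP2, a lipid-binding protein of myelinating glia, was at 9.55 to 13.6 CPM in temporal libraries, 0.437 to 1.92 CPM in nasal libraries and 55.8 to 288 CPM in central libraries. The part of these cells in the levels of FST and of the central-high ligands was not tested. In bulk tissue, fewer cells of a type and less RNA per cell cannot be told apart.

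**Figure D2:**
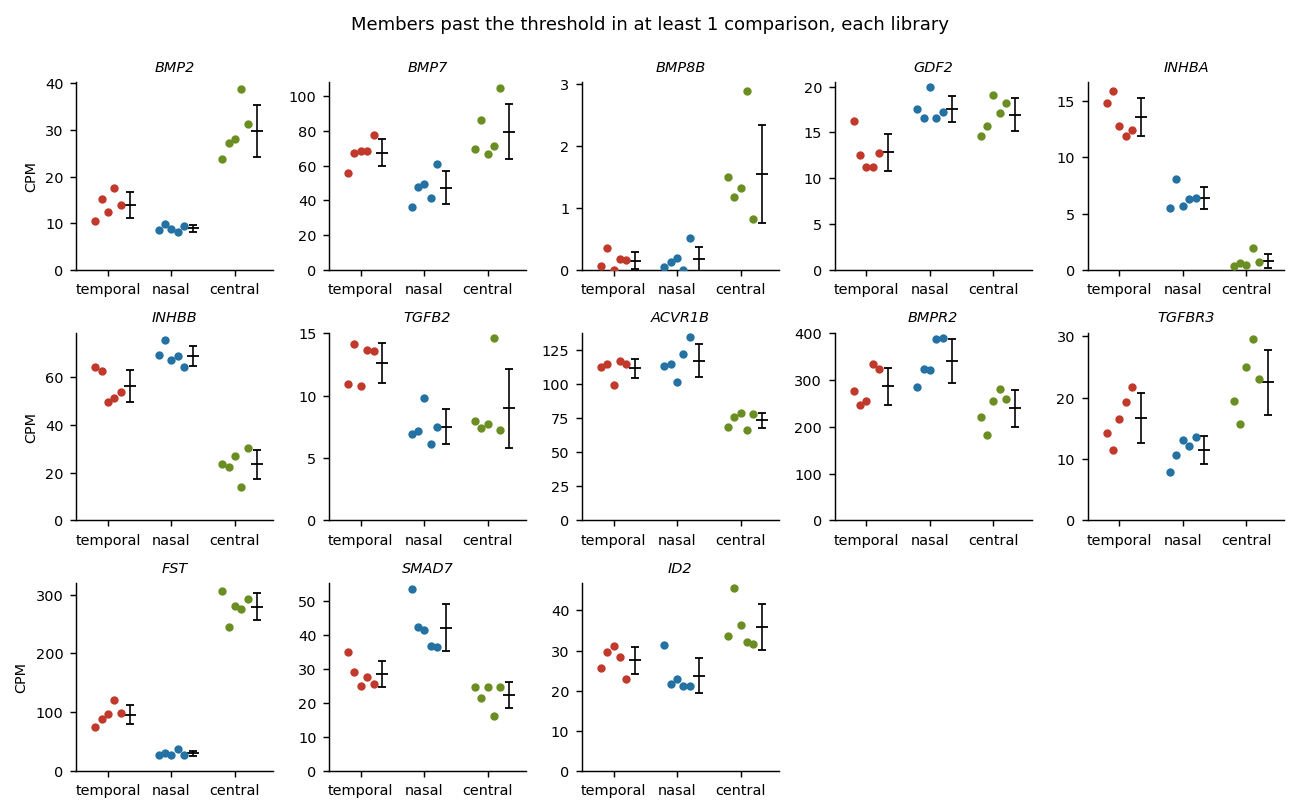
Levels in CPM (vertical axes, from 0) of the 13 gene models called in at least 1 comparison, with temporal, nasal and central libraries from left to right. Points are libraries in order of replicate number, and the black bars give the mean ± SD of 5 libraries, cut off at 0 for BMP8B. FST, BMP2, INHBA, INHBB and SMAD7 separate all 3 regions. The central libraries are on top for FST and BMP2, the temporal ones for INHBA and the nasal ones for INHBB and SMAD7.

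Among the BMP and GDF ligands, 11 of 19 gene models were tested. Of the 11, 3 were called between nasal and central tissue, each lower in nasal tissue (27.3%). Of all gene models, 18.4% were called there in either direction and 10.4% lower. Between temporal and central tissue 2 were called, each lower in temporal tissue (18.2%), beside 6.78% of all gene models in either direction and 3.53% lower. BMP8B is in both counts, and its direction was set by the filter on low counts, so BMP2 and BMP7 in nasal tissue and BMP2 in temporal tissue are the calls that remain. BMP2 (ANOSAT001912), a ligand with osteogenic and patterning roles, was at 10.5, 15.2, 12.4, 17.6 and 14.0 CPM in temporal libraries, at 8.53, 9.81, 8.91, 8.10 and 9.49 CPM in nasal libraries and at 23.9, 27.2, 28.1, 38.7 and 31.4 CPM in central libraries. As with FST, no libraries of different regions overlapped, and the order was central, temporal, nasal from high to low. The log2 fold change was -1.09 for temporal minus central (SE 0.154, edgeR adjusted p = 0.00016) and -1.73 for nasal minus central (SE 0.158, adjusted p = 3.2e-07). The difference of 0.64 for temporal minus nasal (SE 0.156, edgeR adjusted p = 0.017) was lost without temporal replicate 4, where it was 0.54 with an adjusted p of 0.0644. The other gene model with this symbol (ANOSAT016329) had 0 to 22 reads in a library and was not called in any comparison.

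BMP7 (ANOSAT009537), a ligand required for eye development in the mouse, was at 55.9, 67.1, 68.2, 68.4 and 77.7 CPM in temporal libraries, at 36.2, 48.0, 49.7, 41.5 and 61.2 CPM in nasal libraries and at 69.6, 86.0, 66.5, 71.1 and 104 CPM in central libraries. All nasal libraries were below all central libraries, and 4 of the 5 were below all temporal libraries. It was lower in nasal than in central tissue (log2 fold change -0.75, SE 0.147, edgeR adjusted p = 0.0012), and temporal minus central was -0.24 (approximate 95% interval -0.52 to 0.05, adjusted p = 0.45). Temporal tissue was above nasal tissue by 0.51 (SE 0.146, edgeR adjusted p = 0.043, or 0.00067 with the block), higher in 5 of 5 pairs of the same replicate number. That call was lost without central replicate 2, without nasal replicate 1, 2, 3 or 4 and without temporal replicate 2, 3, 4 or 5, with adjusted p of 0.055 to 0.114.

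BMP8B (ANOSAT016036) had few reads: 1, 9, 0, 4 and 4 in temporal libraries, 1, 3, 4, 0 and 13 in nasal libraries and 27, 32, 24, 45 and 17 in central libraries. The highest level outside the central region, 0.516 CPM in nasal replicate 5, was below the lowest central level of 0.830 CPM. The log2 fold change was -3.18 for temporal minus central (SE 0.761, edgeR adjusted p = 0.014) and -3.01 for nasal minus central (SE 0.748, adjusted p = 0.0080). This gene model passed the filter on low counts through its central libraries, so it could only have been tested because it was high there. Without nasal replicate 5, which held 13 of its nasal reads, nasal minus central was -3.92 for BMP8B.

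GDF2, also named BMP9 and known as a circulating ligand of the endothelial receptor ACVRL1, had its lowest levels in temporal tissue. GDF2 (ANOSAT008090) was at 16.2, 12.5, 11.2, 11.3 and 12.8 CPM in temporal libraries, at 17.5, 16.6, 20.0, 16.6 and 17.2 CPM in nasal libraries and at 14.6, 15.7, 19.0, 17.1 and 18.2 CPM in central libraries. The temporal libraries lay below the nasal ones without overlap, the nearest pair being 16.2 and 16.6 CPM, and overlapped with the central ones. Temporal minus nasal was -0.46 (SE 0.131, edgeR adjusted p = 0.044), and leaving out central replicate 2, any of the 5 nasal libraries or temporal replicate 2, 3, 4 or 5 ended the call, with adjusted p of 0.0529 to 0.131. Temporal minus central was -0.40 (SE 0.131, adjusted p = 0.079).

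GDF11, a ligand that in the mouse retina limits the number of ganglion cells, was called only with the block. GDF11 (ANOSAT004824) averaged 47.3 ± 8.29 CPM in temporal tissue, 51.2 ± 9.21 CPM in nasal tissue and 63.5 ± 9.67 CPM in central tissue (SD, n = 5 each). The libraries of the 3 regions overlapped, yet the temporal library was below the central library of the same number in 5 of 5 pairs and the nasal one in 4 of 5. Temporal minus central was -0.42 (edgeR adjusted p = 0.11, or 0.0082 with the block) and nasal minus central was -0.31 (adjusted p = 0.17, or 0.026 with the block).

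The remaining 6 ligand gene models tested, BMP2 (ANOSAT016329), BMP3, BMP4 (ANOSAT000102), BMP5, BMP6 and GDF7, were not called with or without the block. BMP4, the ligand of dorsal identity in the optic cup of model vertebrates, averaged 12.0 ± 2.34 CPM in temporal tissue, 11.3 ± 4.28 CPM in nasal tissue and 12.2 ± 2.22 CPM in central tissue (SD, n = 5 each). Its approximate 95% intervals were -0.45 to 0.42 for temporal minus central, -0.55 to 0.32 for nasal minus central and -0.34 to 0.53 for temporal minus nasal. GDF7 was at 0 in central replicate 4 and at 0.668 to 1.61 CPM in the other central libraries, and without that replicate nasal minus central was -1.42 (edgeR adjusted p = 0.043).

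Of the TGF-beta ligands, TGFB2 alone was called. TGFB2 (ANOSAT002840), a secreted TGF-beta isoform, was at 10.9, 14.2, 10.8, 13.6 and 13.5 CPM in temporal libraries, at 6.92, 7.18, 9.85, 6.14 and 7.50 CPM in nasal libraries and at 7.96, 7.42, 7.77, 14.6 and 7.23 CPM in central libraries. Temporal libraries were above all nasal libraries and above every central library other than replicate 4, which was the highest of the 15. Temporal minus nasal was 0.75 (SE 0.204, edgeR adjusted p = 0.033), a call lost without nasal replicate 1, 2, 4 or 5 or temporal replicate 2, 4 or 5 (adjusted p of 0.0558 to 0.0904). Temporal minus central was 0.49 (adjusted p = 0.20) with all libraries and 0.74 (adjusted p = 0.0056) without central replicate 4. TGFB1, at most 1.31 CPM in any library, and TGFB3, at 2.96 to 13.0 CPM, were not called with or without the block.

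Of the receptors, 13 of 14 gene models were tested, 3 were called between nasal and central tissue (23.1%, beside 18.4% of all gene models) and 1 between temporal and central tissue (7.69%, beside 6.78%). Between temporal and nasal tissue edgeR called 0 receptors, beside 6.59% of all gene models. Of the 13, 3 had an unadjusted edgeR p under 0.05, while DESeq2 called 0 and limma-voom 3 (ACVR1, ACVRL1 and TGFBR1). ACVR1B (ANOSAT004905), the type I receptor of activins also named ALK4, was at 113, 115, 99.5, 117 and 115 CPM in temporal libraries, at 114, 115, 102, 122 and 135 CPM in nasal libraries and at 69.0, 75.7, 79.0, 66.7 and 78.4 CPM in central libraries. Like the activin subunits, it was higher in every temporal and nasal library than in any central library. The log2 fold change was 0.60 for temporal minus central (SE 0.0879, edgeR adjusted p = 0.00022) and 0.67 for nasal minus central (SE 0.0880, adjusted p = 2.2e-05). Temporal and nasal libraries overlapped, and their difference of -0.07 had an approximate 95% interval of -0.24 to 0.10.

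BMPR2 (ANOSAT001720), the type II receptor of BMPs, was at 276, 247, 254, 333 and 323 CPM in temporal libraries, at 284, 322, 320.0, 388 and 390.2 CPM in nasal libraries and at 219.9, 181, 255, 281 and 258 CPM in central libraries. The lowest nasal library was above the highest central library, and the temporal libraries overlapped with both. Nasal minus central was 0.51 (SE 0.125, edgeR adjusted p = 0.0072). With the block, BMPR2 was also called for temporal minus central (0.27, adjusted p = 0.029, or 0.29 without it) and for temporal minus nasal (-0.25, adjusted p = 0.036, or 0.31 without it), with temporal below nasal in 5 of 5 pairs.

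TGFBR3 (ANOSAT010346), the co-receptor betaglycan that presents TGF-beta ligands and inhibins, had the opposite order. It was at 14.2, 11.4, 16.5, 19.2 and 21.7 CPM in temporal libraries, at 7.89, 10.6, 13.1, 12.2 and 13.5 CPM in nasal libraries and at 19.5, 15.6, 25.0, 29.5 and 23.0 CPM in central libraries. All nasal libraries were below all central libraries, and the temporal libraries reached into both. Nasal minus central was -0.97 (SE 0.202, edgeR adjusted p = 0.0020). Temporal minus central was -0.43 (adjusted p = 0.27, or 0.036 with the block) and temporal minus nasal was 0.54 (adjusted p = 0.14, or 0.015 with the block), each in the same direction in 5 of 5 pairs.

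ACVR1, ACVR2A and ACVRL1 were called only with the block. ACVR1, a type I receptor of BMPs, averaged 37.4 ± 4.43 CPM in temporal tissue, 45.2 ± 5.43 CPM in nasal tissue and 35.4 ± 7.90 CPM in central tissue (SD, n = 5 each), and nasal minus central was 0.36 (edgeR adjusted p = 0.095, 0.0081 with the block, and 0.013 without central replicate 4 and the block). ACVR2A, a type II receptor of activins, averaged 387 ± 56.5 CPM in temporal tissue, 378 ± 56.1 CPM in nasal tissue and 489 ± 96.5 CPM in central tissue (SD, n = 5 each). It was below the central library of the same number in 5 of 5 temporal and 5 of 5 nasal libraries, with edgeR adjusted p of 0.18 for temporal and 0.067 for nasal minus central, and 0.0096 and 0.0024 with the block. ACVRL1, the endothelial type I receptor that binds GDF2, was at 15.8 to 27.1 CPM in temporal libraries, at 6.92 to 16.1 CPM in nasal libraries and at 13.1 to 39.2 CPM in central libraries.

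For nasal against central, the ACVRL1 result rested on central replicate 4, its highest library. Nasal minus central was -0.75 with all libraries (edgeR adjusted p = 0.076, or 0.016 with the block) and -0.36 without that replicate (adjusted p = 0.26). Temporal minus nasal was 0.67 (adjusted p = 0.20, or 0.030 with the block), and 0.041 was its adjusted p without central replicate 4. PECAM1, an adhesion molecule that marks endothelium, was at 4.34 to 6.28 CPM in temporal libraries, 2.52 to 5.68 CPM in nasal libraries and 6.23 to 17.3 CPM in central libraries, and all 8 endothelial symbols together summed to 157 to 206 CPM in temporal, 156 to 195 CPM in nasal and 172 to 300.0 CPM in central libraries. The part of endothelial cells in the ACVRL1 levels was not tested.

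Not called with or without the block were ACVR2B, BMPR1A, BMPR1B, TGFBR1, both gene models of TGFBR2 and TGFBR3L. ACVR2B, a type II receptor of activins, varied little, at 22.1 ± 1.01 CPM in temporal tissue, 24.1 ± 1.52 CPM in nasal tissue and 22.1 ± 0.805 CPM in central tissue (SD, n = 5 each). Its approximate 95% interval was -0.18 to 0.19 for temporal minus central and -0.06 to 0.31 for nasal minus central. BMPR1A, a type I receptor of BMPs, ranged from 44.5 to 89.4 CPM over the 15 libraries with every region spanning most of that range. One TGFBR2 gene model (ANOSAT001305) passed the test for nasal minus central when central replicate 4 was left out (0.77, edgeR adjusted p = 0.044).

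Of the secreted antagonists and follistatin-like proteins, 11 of 14 gene models were tested, and FST alone was called without the block. That was 9.09% in each comparison. Of all gene models, 18.4% were called between nasal and central, 6.78% between temporal and central and 6.59% between temporal and nasal tissue. With the block, CHRDL1, a chordin-like BMP antagonist, was also called, at 30.9 ± 4.67 CPM in temporal tissue, 32.5 ± 4.84 CPM in nasal tissue and 25.0 ± 3.38 CPM in central tissue (SD, n = 5 each). It was above the central library of the same number in 5 of 5 nasal and 5 of 5 temporal libraries, and nasal minus central was 0.38 (edgeR adjusted p = 0.069, 0.013 with the block, and 0.046 without central replicate 4 and the block). FSTL4 (ANOSAT005497) and FSTL5, follistatin-like proteins that are named for a shared domain, were called with the block for temporal minus nasal, at 0.28 (adjusted p = 0.18, or 0.042 with the block) and 0.29 (adjusted p = 0.24, or 0.024 with the block). FSTL4 averaged 299 ± 34.2 CPM in temporal tissue and 246 ± 34.4 CPM in nasal tissue, and FSTL5 averaged 540.4 ± 71.4 CPM in temporal tissue and 441 ± 75.3 CPM in nasal tissue (SD, n = 5 each).

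The BMP antagonists noggin and BMPER gave no call with or without the block. NOG was split over a pair of gene models, at 0 to 1.13 CPM (ANOSAT004867) and 1.56 to 4.54 CPM (ANOSAT017043). BMPER, which binds BMPs and in mouse and fish is known from vascular tissue, was at 5.41 to 8.76 CPM in temporal libraries, 6.65 to 8.06 CPM in nasal libraries and 7.63 to 26.3 CPM in central libraries, where the highest value was again that of replicate 4. FSTL1, FSTL3 and the other FSTL4 gene model (ANOSAT005498) were not called either.

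Proteins that store or process the ligands gave 0 calls without the block among 8 gene models in each comparison by edgeR. Of all gene models, 18.4% were called between nasal and central, 6.78% between temporal and central and 6.59% between temporal and nasal tissue. At an unadjusted p under 0.05 there were 2 of the 8 between nasal and central tissue. Between temporal and central tissue there were 2, and between temporal and nasal tissue 0. In this group limma-voom called LTBP2 in all 3 comparisons, while DESeq2 called 1 gene model, between nasal and central tissue. LTBP2, a latent TGF-beta binding protein that joins microfibrils and is needed for the ciliary zonule in the mouse, depended on central replicate 4. LTBP2 (ANOSAT000393) was at 8.43, 13.1, 6.12, 11.6 and 11.0 CPM in temporal libraries, at 11.8, 15.5, 13.8, 12.6 and 14.0 CPM in nasal libraries and at 3.40, 3.71, 4.72, 17.2 and 4.10 CPM in central libraries. Central replicate 4 was the highest of the 15 libraries, and the other central libraries were below every temporal and nasal one. With all libraries, nasal minus central was 1.04 (edgeR adjusted p = 0.058, or 1.27 and 0.0065 with the block) and temporal minus central was 0.62 (adjusted p = 0.44). Without that replicate the values were 1.77 (adjusted p = 5.6e-06) and 1.34 (adjusted p = 0.00029).

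LTBP1, which binds latent TGF-beta to the matrix, went the other way. It was at 23.2 to 39.4 CPM in temporal libraries, 20.2 to 27.7 CPM in nasal libraries and 25.6 to 71.6 CPM in central libraries, with the highest value in central replicate 4. Its nasal minus central difference was called with the block (-0.51, edgeR adjusted p = 0.029) and not without it (-0.59, adjusted p = 0.093), and it was -0.21 without central replicate 4 (adjusted p = 0.32). BMP1, despite its symbol a metalloproteinase that cleaves procollagen and chordin, was called with the block for temporal minus central in 1 of its 2 gene models (ANOSAT017548, 0.27, adjusted p = 0.35, or 0.040 with the block). The 3 gene models of LTBP3, that of LTBP4 and the other BMP1 gene model were not called.

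**Figure D3:**
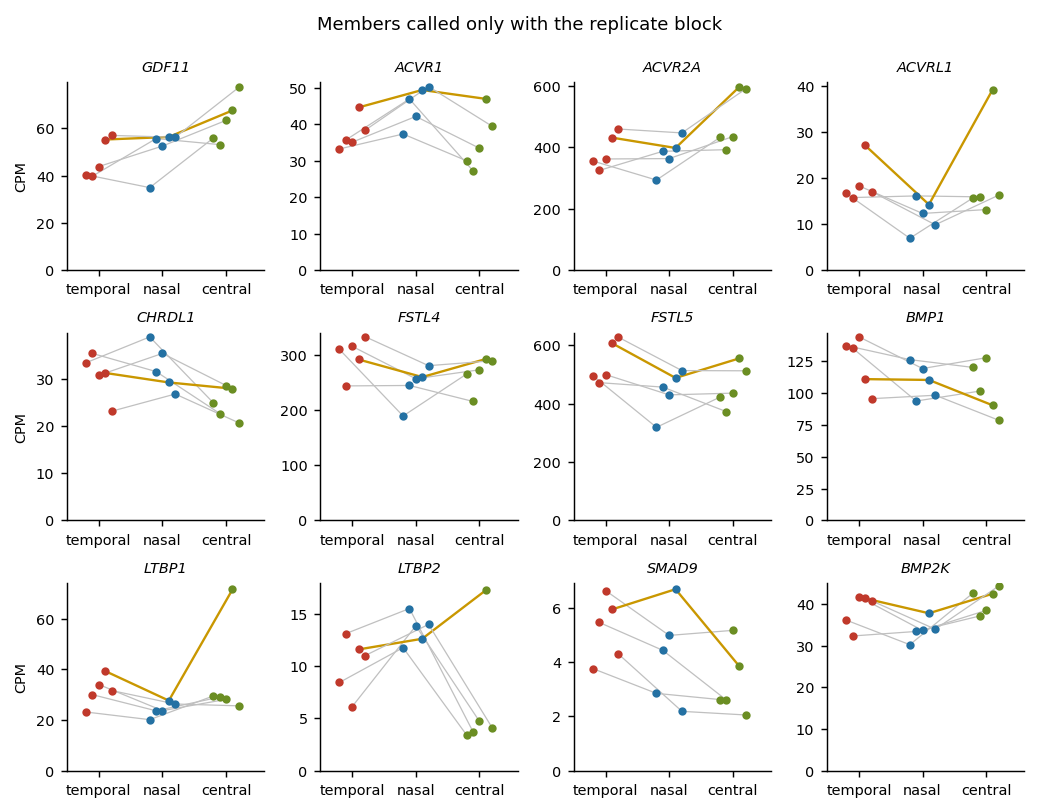
Levels in CPM (vertical axes, from 0) of the 12 gene models called only with the replicate block, in temporal, nasal and central libraries from left to right. Lines join libraries of the same replicate number, with number 4 in gold, and each point is 1 library; for LTBP2, LTBP1 and ACVRL1 the central library of number 4 lies far above the other central libraries (17.2, 71.6 and 39.2 CPM).

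SMAD7, the inhibitory SMAD that blocks type I receptors, was the only SMAD called without the block among 7 gene models tested. It made up 14.3% of the 7 for nasal against central and for temporal against nasal, beside 18.4% and 6.59% of all gene models. For temporal against central 0 of the 7 were called, beside 6.78%. SMAD7 (ANOSAT003365) was at 34.9, 29.2, 25.1, 27.7 and 25.7 CPM in temporal libraries, at 53.5, 42.3, 41.6, 36.9 and 36.4 CPM in nasal libraries and at 24.8, 21.6, 24.7, 16.0 and 24.8 CPM in central libraries. The regions did not overlap, with nasal libraries highest and central libraries lowest. Nasal minus central was 0.91 (SE 0.144, edgeR adjusted p = 0.00016). Temporal minus nasal was -0.56 (SE 0.143, adjusted p = 0.022), which missed the threshold without nasal replicate 1, 2 or 3 or temporal replicate 3, 4 or 5 (adjusted p of 0.0503 to 0.0732). Temporal minus central was 0.35 (adjusted p = 0.20), although every temporal library was above every central one, the nearest pair being 25.1 and 24.8 CPM.

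The other SMADs gave no call without the block. SMAD1, which carries BMP signals, averaged 24.3 ± 3.40 CPM in temporal tissue, 24.6 ± 1.50 CPM in nasal tissue and 26.4 ± 1.02 CPM in central tissue (SD, n = 5 each), with approximate 95% intervals of -0.33 to 0.10 for temporal minus central, -0.31 to 0.12 for nasal minus central and -0.23 to 0.20 for temporal minus nasal. SMAD5, also a BMP SMAD, had intervals of -0.28 to 0.23, -0.17 to 0.34 and -0.36 to 0.14 for the same comparisons. SMAD4, the common partner, averaged 85.6 ± 6.02 CPM in temporal tissue, 98.3 ± 9.40 CPM in nasal tissue and 97.7 ± 9.51 CPM in central tissue (SD, n = 5 each). It was lower in the temporal library than in the nasal and the central library of the same number in 5 of 5 pairs, with no call in either comparison (edgeR adjusted p = 0.25 for temporal minus nasal and 0.30 for temporal minus central, 0.056 and 0.077 with the block). In the test of any region SMAD4 was called with the block (adjusted p = 0.049, or 0.23 without it).

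SMAD9, the third of the BMP SMADs, was called with the block for temporal minus central (0.73, edgeR adjusted p = 0.041), and not without it (0.68, adjusted p = 0.27). It was at 3.76 to 6.62 CPM in temporal libraries, 2.18 to 6.67 CPM in nasal libraries and 2.05 to 5.16 CPM in central libraries, so the regions overlapped widely while 5 of 5 pairs had the temporal library higher. SMAD2 was at 0 to 0.913 CPM and SMAD6 (ANOSAT018780) at 1.96 to 7.56 CPM over the 15 libraries, and neither was called. With 146 reads in all, SMAD2 had wide approximate 95% intervals, -0.70 to 1.83 for nasal minus central and -1.52 to 1.08 for temporal minus central. No gene model with the symbol SMAD3 was among those taken by the rule.

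The ID genes encode helix-loop-helix proteins without a DNA-binding domain, which hold back differentiation factors and are direct targets of BMP SMADs in other vertebrates. ID2 (ANOSAT002054) was at 25.6, 29.5, 31.2, 28.4 and 22.8 CPM in temporal libraries, at 31.4, 21.8, 22.9, 21.2 and 21.1 CPM in nasal libraries and at 33.6, 45.5, 36.3, 32.1 and 31.5 CPM in central libraries. The central libraries lay above all others, if only narrowly above nasal replicate 1 and temporal replicate 3. Nasal minus central was -0.60 (SE 0.140, edgeR adjusted p = 0.0051), and temporal minus central was -0.38 (adjusted p = 0.13). ID2 was thus lower in nasal than in central tissue, as BMP2, BMP7, FST and TGFBR3 were.

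ID1 and ID3 gave no call with or without the block when all libraries were used. ID1 was at 2.96 to 6.61 CPM in temporal libraries, 3.45 to 4.89 CPM in nasal libraries and 0.666 to 7.56 CPM in central libraries. ID3 was at 14.2 to 22.7 CPM in temporal libraries, all above the nasal libraries at 8.37 to 13.1 CPM, and at 10.7 to 33.9 CPM in central libraries. Temporal minus nasal was 0.71 (edgeR adjusted p = 0.13) for ID3, and passed the test without central replicate 4, which had the highest value (0.71, adjusted p = 0.015).

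The symbol pattern also took in 3 genes of other function. BMP2K, a kinase named for its induction by BMP2, was called with the block for nasal minus central (-0.28, edgeR adjusted p = 0.067, or 0.024 with the block). TGFB1I1, a focal adhesion protein, and TGFBRAP1, a protein of endosomal tethering, were not called. TGFBRAP1 had the highest adjusted p of the 61 in the test of any region (edgeR, 0.999), at 34.6 ± 2.58 CPM in temporal tissue, 34.5 ± 2.06 CPM in nasal tissue and 34.7 ± 3.35 CPM in central tissue (SD, n = 5 each).

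The 15 gene models that were not tested had too few reads: ACVR1C, BMP15, a second BMP4 (ANOSAT015713), CHRD, both gene models of CHRDL2, GDF1, a second GDF11 (ANOSAT016928), GDF15, GDF5, GDF6, GDF9, second gene models of INHBB and TGFB2, and a second SMAD6 (ANOSAT020648). GDF6, a ligand of dorsal retinal identity in fish and frogs, had 52 reads over the temporal libraries, 15 over the nasal libraries and 1 over the central libraries. CHRD, the BMP antagonist chordin, had 31 reads over the temporal libraries, 21 over the nasal libraries and 4 over the central libraries. These 2 gave no result at this depth in the fit used here. In all, 12 symbols stood on more than 1 gene model, 25 gene models in total, and whether reads were split between them was not tested, but summing the counts over each symbol changed none of the 24 calls in the 3 comparisons.

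Of the 24 calls, 18 held in each of the 25 alternatives that tested them. Libraries did not overlap for 23 of the 24, the exception being BMP7 between temporal and nasal tissue. The same libraries gave the calls, so this lack of overlap is not separate evidence for them. Both counts include the BMP8B calls, whose direction was set by the filter on low counts. They also include the INHBA calls against central tissue, on whose direction the filter bore as well. BMP2, FST and INHBA were called in all 3 comparisons. The 36 gene models tested that were called in none of them, with or without the block, included SMAD1, SMAD2 and SMAD5. SMAD2 had too few reads (146 over all libraries) for the lack of a call to say much, and SMAD3 was not among the members.

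Genes of the same pathways that the symbol pattern misses were taken from 5 lists of other ligands, co-receptors, secreted modulators, intracellular modulators and targets, of which 68 gene models were tested. Of these, 12 were called between nasal and central tissue (4 higher and 8 lower in nasal tissue, 17.6%), 7 between temporal and central tissue (3 higher and 4 lower in temporal tissue, 10.3%) and 5 between temporal and nasal tissue (4 higher and 1 lower in temporal tissue, 7.35%), against the shares of 18.4%, 6.78% and 6.59% over all gene models. With the block the counts were 22, 11 and 9 (32.4%, 16.2% and 13.2%), beside 27.9%, 12.7% and 13.9% of all gene models. The temporal-central count was 4 without temporal replicate 1, 3 or 5, and the temporal-nasal count was 1 to 3 when any library other than central replicate 3 or 4 was left out. Among the other ligands, 0 of 4 gene models tested were called by edgeR, DESeq2 or limma-voom in any comparison, and 0 had an unadjusted edgeR p under 0.05.

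The intracellular modulators that were called in comparisons with central tissue were higher outside it. These were 3 of 23 tested in nasal tissue (13%), beside 18.4% of all gene models called in either direction and 7.94% called higher. In temporal tissue they were 2 of 23 (8.7%), beside 6.78% of all gene models in either direction and 3.24% higher. With the block, WWP1, a ubiquitin ligase, was called in the other direction, at -0.32 for nasal minus central (edgeR adjusted p = 0.0073, or 0.071 without the block) and -0.29 for temporal minus central (adjusted p = 0.024, or 0.17 without it). PMEPA1, a TGF-beta-induced membrane protein that sequesters SMADs, averaged 33.8 ± 5.78 CPM in temporal tissue, 32.0 ± 2.81 CPM in nasal tissue and 16.5 ± 1.46 CPM in central tissue (SD, n = 5 each), without overlap between central tissue and the others. Its log2 fold change was 1.04 for temporal minus central (edgeR adjusted p = 3.2e-05) and 0.96 for nasal minus central (adjusted p = 2.4e-05). SKIL, a co-repressor of SMADs and a TGF-beta target, was higher by 0.55 in temporal tissue (adjusted p = 0.044, lost without 10 of the 15 libraries in turn) and by 0.72 in nasal tissue (adjusted p = 0.0032) than in central tissue. TGIF2, a co-repressor, was higher by 1.19 in nasal than in central tissue (adjusted p = 0.00099), and temporal minus central was 0.62 (adjusted p = 0.13), or 0.63 with the block (adjusted p = 0.046). SMURF2, a ubiquitin ligase of SMADs and receptors, differed by -0.33 for temporal minus nasal (adjusted p = 0.039, lost without 8 of the 15 libraries in turn), and with the block was also called for nasal minus central (0.25, adjusted p = 0.072, or 0.048 with the block).

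The secreted modulators and co-receptors called against central tissue without the block were lower outside it. In nasal tissue these were 6 of 28 secreted modulators (21.4%) and 1 of 6 co-receptors tested (16.7%). Of all gene models, 18.4% were called there in either direction and 10.4% lower. In temporal tissue they were 3 (10.7%) and 1, beside 6.78% of all gene models in either direction and 3.53% lower. The 6 include both gene models of PCSK6. The list of secreted modulators summed to 1715 CPM in central replicate 4 and to at most 1020 CPM in the other central libraries. LRRC32 in nasal tissue (-1.42, edgeR adjusted p = 0.027) was lost without 4 libraries in turn, and BGN in temporal tissue (-0.88, adjusted p = 0.031) without 6. Central replicate 4 was among these libraries for both (adjusted p of 0.0505 to 0.0889 and 0.0532 to 0.0920). With the block, 1 gene model of FBN2 (ANOSAT016319), a fibrillin of microfibrils, was called higher in nasal than in central tissue (0.54, edgeR adjusted p = 0.047, or 0.097 without the block). VWC2, a BMP antagonist with von Willebrand factor type C domains, averaged 58.4 ± 4.49 CPM in temporal tissue, 49.2 ± 3.53 CPM in nasal tissue and 98.2 ± 9.21 CPM in central tissue (SD, n = 5 each). Its log2 fold change was -0.75 for temporal minus central (edgeR adjusted p = 2.8e-05) and -0.998 for nasal minus central (adjusted p = 3.2e-07), and temporal minus nasal was 0.25 (adjusted p = 0.12, or 0.030 with the block). THBS1, an activator of latent TGF-beta, was also lower in both regions than in central tissue, at 49.4 to 94.5 CPM in temporal libraries, 51.0 to 77.7 CPM in nasal libraries and 99.5 to 252 CPM in central libraries. PCSK6, a convertase that cleaves ligand precursors, stood on a pair of gene models (ANOSAT018851 and ANOSAT018852), which both had -1.19 for nasal minus central (adjusted p = 0.00011 and 7.9e-06) and 0.68 and 0.80 for temporal minus nasal (adjusted p = 0.029 and 0.0016, the first lost without 6 of the 15 libraries in turn). The first was also called for temporal minus central with the block (-0.53, adjusted p = 0.0092, or 0.10 without it).

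BAMBI, a pseudoreceptor that is itself a BMP and TGF-beta target, averaged 25.6 ± 2.85 CPM in temporal tissue, 20.3 ± 2.03 CPM in nasal tissue and 35.9 ± 7.56 CPM in central tissue (SD, n = 5 each). BAMBI shared this order of means with BMP2, BMP7 and ID2, but also with FST and VWC2. Its log2 fold change was -0.49 for temporal minus central (edgeR adjusted p = 0.048, lost without 12 of the 15 libraries in turn) and -0.82 for nasal minus central (adjusted p = 0.00045). RGMA, a BMP co-receptor, was higher in temporal than in nasal tissue (0.51, adjusted p = 0.048, also lost without 12 of the 15 libraries in turn). Among the targets, HEY1 was higher in nasal than in central tissue (0.74, adjusted p = 0.0018), JUNB was lower there (-1.11, adjusted p = 0.021, lost without central replicate 1 or nasal replicate 2, 3 or 5), and ATOH8 was higher in temporal than in central tissue (1.31, adjusted p = 0.014).

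**Figure D4:**
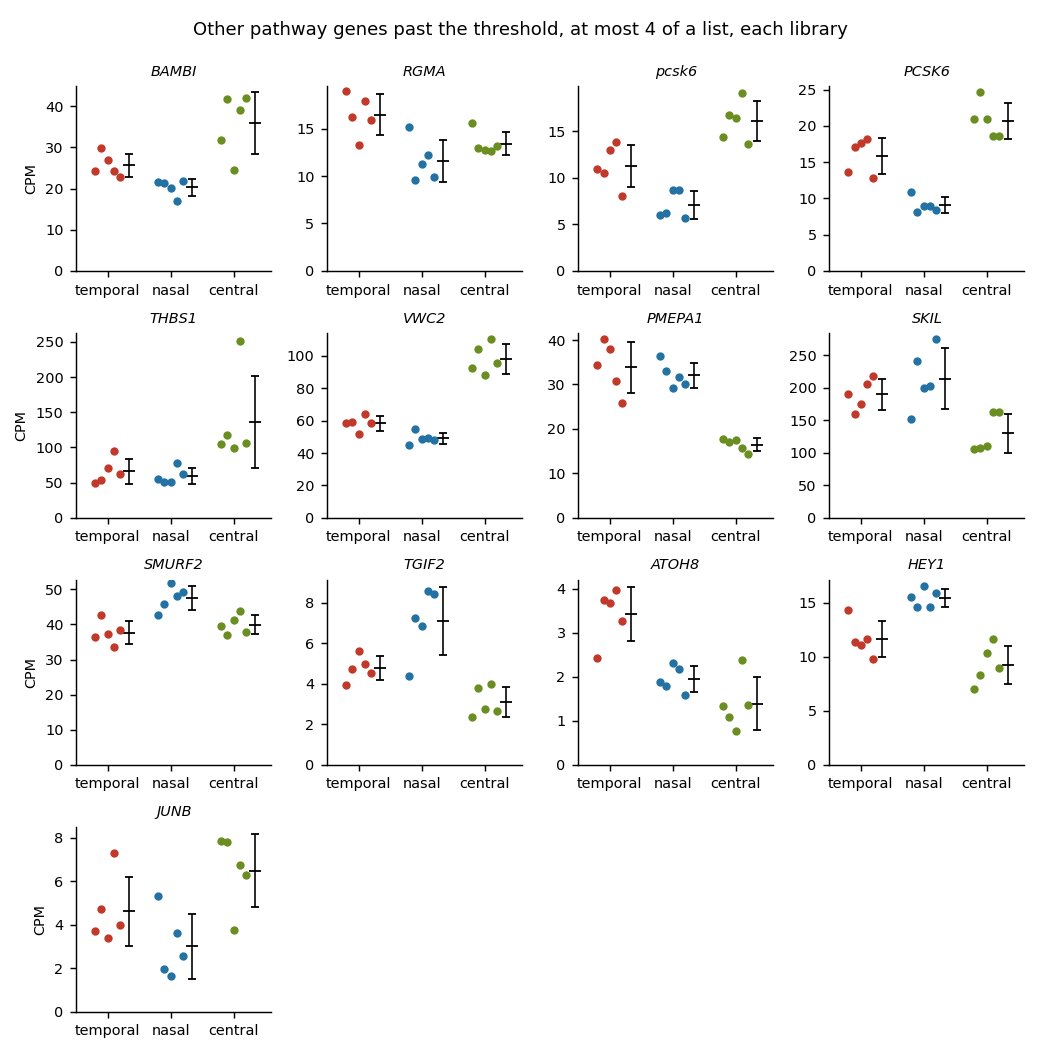
Levels in CPM (vertical axes, from 0) of 13 other pathway gene models called in at least 1 comparison, at most 4 of each list, in temporal, nasal and central libraries from left to right. Points are libraries in order of replicate number and black bars the mean ± SD of 5 libraries; VWC2 has all central libraries at the top and PMEPA1 has all central libraries at the bottom.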

How the data were processed

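For 15 libraries (TruSeq Stranded mRNA, NextSeq 500) the deposited values are raw read counts by gene model, each with a symbol, which the authors did not normalize. The submitters' processing notes name HISAT2 2.2.1 and featureCounts. Settings, strand use and the treatment of multi-mapped reads were not given in the sources used here, so reads of overlapping or antisense genes and of near-identical copies cannot be told apart. The table breaks off in its last line. Of the 63 symbols, 60 are also in the RefSeq table of another assembly of the species, so no coordinates or sequences are printed.

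Counts were analysed in R 4.3.3 with edgeR 4.0.16: filterByExpr by region at a minimum count of 10, TMM scaling, and a robust quasi-likelihood fit of all 15 libraries in 1 model. The Benjamini-Hochberg adjustment covered the 15910 gene models that passed, and the threshold was an adjusted p of 0.05. Levels are CPM of the TMM-scaled libraries. Approximate 95% intervals are the log2 fold change ± 1.96 standard errors. Total counts were 15177438 to 27035312 per library, and the low counts set the precision of a value. The 5 gene models without a symbol (0.0922% of reads) were kept. The fit was tested on simulated data. No library repeats another: chi-square divided by its degrees of freedom was 10.3 to 66.9 over 30 pairs of libraries within a region.

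The labels number replicates 1 to 5 in each region. Deviations from the region mean correlated at 0.193 to 0.524 (median 0.389) in the 15 pairs of the same number and at -0.339 to 0.256 (median -0.109) in the 60 other pairs, with all 15 and 3 pairs over 0.1. The pairing therefore comes from the data, and blocked values are given where they change a call. The pairing was not clear for nasal replicate 2, which correlated with central and temporal replicate 2 at 0.193 and 0.197. Nasal replicate 1 correlated with the same libraries at 0.256 and 0.243.

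Alternatives were DESeq2 1.42.0, limma-voom (limma 3.58.1), upper-quartile and RLE scaling, no filter, a minimum count of 30, only the regions compared, counts summed over symbols, the replicate block, and leaving out each library. The block without central replicate 4 was added after seeing the data. Each gene model called in any comparison is named, with its libraries where regions did not overlap or the mean reached 5 CPM. Those called only with the block are named as such, and at most 4 of each other list by smallest adjusted p. WWP1, FBN2, LRRC32 and BGN were named after their values were seen. One member tested and 1 marker of a region are not reported here. The members and lists were chosen with earlier results of these data known. Figures were made in matplotlib 3.10.9 (Python 3.11.15).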

Additional observations from a re-analysis of the deposited data

Results flagged for a closer look

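In 13 of 114 groups of 5 libraries tested with Dixon's rule (critical value 0.71), 1 library lay far from the other 4, where chance alone gives about 1 in 20. Of these, 8 were in central replicate 4. ACVRL1 was at 39.2 CPM there and at 13.1 to 16.3 CPM in the other central libraries, INHBA at 1.92 against 0.334 to 0.684 CPM, LTBP1 at 71.6 against 25.6 to 29.6 CPM, LTBP2 at 17.2 against 3.40 to 4.72 CPM and TGFB2 at 14.6 against 7.23 to 7.96 CPM. In the same library the summed periocular mesenchyme markers were at 2988 CPM against 308 to 1033 CPM, the summed endothelium markers at 300.0 CPM against 172 to 189 CPM, and 14994 gene models had reads, against 17603 to 18617. The part of these cells in the member levels was not tested. The 114 groups share libraries and did not cover every member tested. Among those left out, central replicate 4 also lay far above the other central libraries for TGFBR2 (ANOSAT014889, 61.2 against 20.3 to 27.1 CPM), for example. ID3 (33.9 against 10.7 to 16.0 CPM) and BMPER (26.3 against 7.63 to 12.2 CPM) were further such members. The 13 are therefore not a full list, and 1 in 20 is only a rough guide.

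The other 5 were spread over temporal and nasal libraries. ACVRL1 was at 27.1 CPM in temporal replicate 4 and at 15.8 to 18.3 CPM in the other temporal libraries. ACVR1B was at 99.5 CPM in temporal replicate 3 against 113 to 117 CPM in the others. GDF11 was at 34.9 CPM in nasal replicate 1 against 52.5 to 56.4 CPM, and ID2 at 31.4 CPM in the same library against 21.1 to 22.9 CPM. GDF2 was at 20.0 CPM in nasal replicate 3 against 16.6 to 17.5 CPM.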

How the results depend on the processing

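Of the 24 calls of single gene models, 18 held in each of the 25 alternatives that tested them and 6 were lost in some (BMP2, BMP7, GDF2, INHBA, SMAD7 and TGFB2, each for temporal against nasal), and none changed sign. Without a filter, BMP7 and GDF2 missed the threshold (adjusted p = 0.0565 and 0.0599 by edgeR), since more gene models were tested. For nasal against central, the 11 calls among the 61 became 17 with DESeq2, 17 with limma-voom, 19 with the replicate block and 22 with the block and without central replicate 4. For temporal against central, the 6 calls became 12 with the block and 15 with the block and without that replicate. For temporal against nasal, the 7 calls became 15 with limma-voom, 12 with the block and 19 with the block and without that replicate. In the test of any region, 13 became 22 and 28 with these 2 blocked fits. The shares of all gene models in that test are not given here for these fits. The rise can therefore not be set against the whole table. These 2 fits call more of the whole table too: with the block and without central replicate 4, 31.7%, 14.1% and 21% of all gene models were called in the 3 comparisons. For temporal against central, DESeq2 called 8 and limma-voom 9 of the 61, and over all gene models DESeq2 called 3531, 1527 and 1526 in the 3 comparisons. Among the members, the block changed no call other than those given in the report. Leaving out each library in turn gave 11 to 16, 6 to 8 and 1 to 9 calls in the 3 comparisons and 10 to 16 for any region. The other pathway genes went from 12 to 23 with limma-voom, 22 with the block and 29 with the block without central replicate 4 for nasal against central, and from 7 to 11 and 14 with these blocked fits for temporal against central. For temporal against nasal their 5 calls became 11 with limma-voom, 2 without a filter, 8 with only the regions compared, 9 with the block and 15 with the block without central replicate 4. Leaving out each library gave 10 to 18, 4 to 7 and 1 to 6. Over all gene models, limma-voom called 4640 against 2925 by edgeR for nasal against central and 2425 against 1048 for temporal against nasal, and the block called 4438, 2022 and 2216 in the 3 comparisons against 2925, 1078 and 1048. The cause of these differences was not tested. BMP8B, with at most 45 reads in a library, was not tested under the stricter filter, and depth limits what can be said of it and of the members with too few reads to test.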
